A study of Mus musculus with 73 samples.

Results

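Integrins are the receptors by which phagocytes hold on to vessel walls, matrix and opsonised particles, and the genes described here are 9 integrin chains of lung phagocytes. They are Itgal, Itgam, Itgb2, Itga4, Itgb1, Itgb7, Itgav, Itgb5 and Itga6, taken by name from the 23994 gene rows of an expression table over 73 single cells. All 9 passed the filter on low values, which asked for detection in at least 8 cells and left 6151 genes. The cells came from the right lung lobes of 1 adult Csf1r-GFP mouse of the B6 strain, aged 10 weeks, 7 days after its left lung was removed by pneumonectomy. They were sorted as CD45+, CSF1R-GFP+ and F4/80+, and Ly6G is named in the sort without a sign. The reporter marks cells in which the Csf1r promoter is active, monocytes included, so the sort does not by itself separate monocytes from macrophages. The values describe a lung after pneumonectomy and show no effect of the operation, since no unoperated lung was analysed here. All cells came from 1 animal and are not replicates of a condition. No p-value was computed, intervals of shares are exact Clopper-Pearson 95% intervals, and they cover counting error only. Where no cell held a transcript, the limit given is 3 cells over the number of cells, a rounder bound than the end of the exact interval.

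An integrin is a heterodimer of an alpha and a beta chain, and neither chain reaches the cell surface in quantity without a partner. The beta2 chain (Itgb2) is found on leukocytes and pairs with alphaL (Itgal, CD11a), alphaM (Itgam, CD11b) or alphaX (Itgax, CD11c), while beta1 (Itgb1) serves many alpha chains in most cell types. Blood monocytes use alpha4 (Itga4) with beta1 or beta7 (Itgb7) to bind vessel walls, and lung macrophages of the air spaces are known for CD11c without CD11b at their surface.

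The 73 cells fell into 4 clusters when adhesion genes were left out of the clustering. A cluster of 12 cells, led by Ear2, Plet1, Atp6v0d2, Car4 and Chil3, is called alveolar-macrophage-like. A cluster of 6 cells led by C1qb, C1qa, C1qc, Ms4a7 and Pf4 is called interstitial-macrophage-like. A cluster of 5 cells, led by class II and cell cycle genes, had too few markers of any type among its leading genes and stays unnamed. The remaining 50 cells, led by Ifitm3, Plac8, Ly6c2 and Hp, are called classical-monocyte-like. Of them, 48 had at least 3 classical monocyte markers at 10 FPKM or more. By the same rule, 13 had non-classical monocyte markers, 10 interstitial macrophage markers and 7 alveolar macrophage markers, from lists that share a few genes. Also, 13 of them reached 10 FPKM for neither Ly6c2 nor at least 2 of the 3 C1q genes. The name thus describes the cluster and not each cell. The median estimate of mouse fragments per cell was 1057404 in the alveolar-macrophage-like, 1355759 in the interstitial-macrophage-like, 3219622 in the unnamed and 1392927 in the classical-monocyte-like cells. A transcript was called detected at 1 FPKM (fragments per kilobase of transcript per 1000000 fragments) or more. Hprt, a housekeeping gene, was listed at 0 in 30 of the 73 cells, so an integrin listed at 0 is not shown to be absent from the cell. Hprt was detected in 10 of 12 alveolar-macrophage-like, 1 of 6 interstitial-macrophage-like, 3 of 5 unnamed and, among classical-monocyte-like cells, 24 of 50. Its low share in the interstitial-macrophage-like cells moves with the low shares of Itgb2 and Itgal there, and its part in them was not tested. Of the genes behind the sort, Ptprc (CD45) was detected in 69 cells, Csf1r in 65 and Emr1 (F4/80) in 41, with 25 of the 50 classical-monocyte-like cells lacking a detected Emr1 transcript.

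Across all cells, beta chains led. Itgb2 was detected in 59 of 73 cells (80.8%, interval 69.9 to 89.1) and Itgb1 in 57 (78.1%, 66.9 to 86.9). The alpha chains followed, with Itga4 in 44 cells, Itgam in 43, Itgal in 34 and Itgav in 27. The remaining beta chains were rarer, with Itgb5 in 20 cells and Itgb7 in 18, and Itga6 was found in 9 cells (12.3%, 5.80 to 22.1). Per length of transcript, the order of mean levels was Itgb2 with 102.6 FPKM, Itgb1 with 45.8, Itgb5 with 31.3, Itga4 with 29.3, Itgam with 24.8, Itgal with 15.99, Itgb7 with 14.4, Itga6 with 9.50 and Itgav with 3.90. No neighbours in this order differed beyond the spread between cells, since the largest gap, that between Itgb2 and Itgb1, was 0.25 of the larger standard deviation. A rare transcript was not always a low one where it was found. The median over detecting cells was 60.3 FPKM for Itgb5 and 54.4 FPKM for Itga6, against 4.17 FPKM for Itgav, which was detected in more cells. A median of 4 of the 9 transcripts was detected per cell, with a range from 1 to 7.

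**Figure D1:**
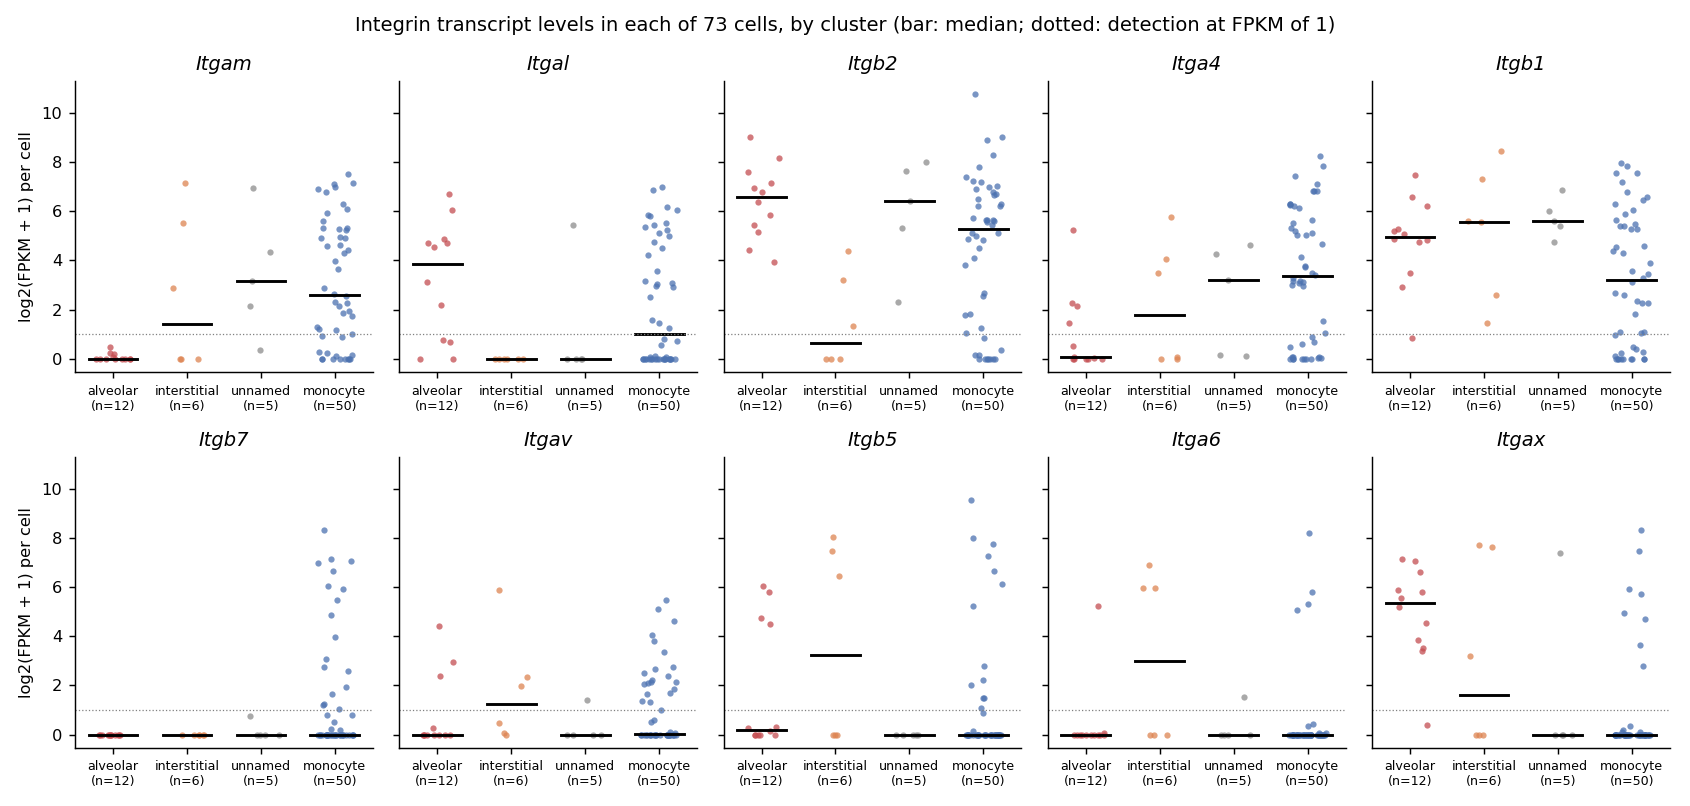
Each point is a cell, with its level as log2(FPKM + 1) on the vertical axis and its cluster on the horizontal axis, for the 9 integrins and for Itgax. Itgam has no alveolar-macrophage-like cell above the detection line, Itgb7 is detected only among the 50 classical-monocyte-like cells, and Itgb2 lies above the line in all 12 alveolar-macrophage-like cells.

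Between the alveolar-macrophage-like and the classical-monocyte-like cells, 5 of the 9 integrins were more than 1 log2 unit apart in mean log2(FPKM + 1). Itgb2 and Itgb1 were higher in the alveolar-macrophage-like cells, 2 of 9, where 19.2% of the 6151 genes were higher by that much. Itgam, Itga4 and Itgb7 were lower, 3 of 9, where 9.12% of all genes were lower by that much. The median difference was -0.06 over the 9 integrins and 0.13 over all 6151 genes. Just outside the threshold lay Itgal, with a difference of 0.98. The called integrins nearest to the threshold were Itgb1 with 1.53 and Itgb7 with -1.60.

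The beta2 chain was carried by every alveolar-macrophage-like cell and was scarce in the interstitial-macrophage-like ones. Itgb2 ran from 14.3 over a median of 94.9 to 513 FPKM in the 12 alveolar-macrophage-like cells. The 6 interstitial-macrophage-like cells had 1.502, 8.27 and 19.7 FPKM in the cells that held it, and it was listed at 0 in the other three. The unnamed cells had 3.96, 38.7, 84.4, 195 and 257 FPKM. In the classical-monocyte-like cells it was listed at 0 in 7 of 50, with a median of 38.002 and a highest value of 1728 FPKM. The alveolar-macrophage-like and interstitial-macrophage-like ranges thus met only at the cell with 19.7 FPKM, while the classical-monocyte-like cells spanned both. The mean difference was 1.96 log2 units for alveolar-macrophage-like minus classical-monocyte-like cells. The mean FPKM was 135 in alveolar-macrophage-like cells and 105 in classical-monocyte-like cells, and 1 classical-monocyte-like cell held 32.8% of that cluster's summed Itgb2. Without that cell the classical-monocyte-like mean was 72.2 FPKM.

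Itgam, the alpha chain of complement receptor 3, was not detected in alveolar-macrophage-like cells. No alveolar-macrophage-like cell reached 1 FPKM, the highest value being 0.388, and a count of 0 of 12 has a limit of 25% (exact interval 0 to 26.5%). Of 50 classical-monocyte-like cells 36 passed detection (72%, 57.5 to 83.8), with a median of 5.06 and a highest value of 180.5 FPKM. Among interstitial-macrophage-like cells 3 of 6 held it, at 6.27, 44.5 and 141 FPKM, and the other three were listed at 0. The unnamed cells had 0.296, 3.37, 8.09, 19.4 and 124 FPKM. The alveolar-macrophage-like cells were thus all low, while the other clusters each held cells with and without the transcript. The difference in mean log2(FPKM + 1) was -3.03 for alveolar-macrophage-like minus classical-monocyte-like cells. After thinning every cell to 347003 mouse fragments, Itgam was found in 0 of 12 alveolar-macrophage-like cells, against 35 of 50 classical-monocyte-like cells. Thinning only removes fragments, so the 8 alveolar-macrophage-like cells listed at 0 could not gain the transcript. The thinned values thus bear on the classical-monocyte-like count alone.

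Itgax, the alpha chain of complement receptor 4 and not among the 9 genes, is given here because it lies next to Itgam and shares its beta chain. In mm10, Itgam spans chromosome 7 from 128062640 to 128118491 and Itgax spans 128129547 to 128150657 on the same strand, with 11055 bases between them. Of 12 alveolar-macrophage-like cells 11 held Itgax (91.7%, 61.5 to 99.8), from 0.318 over a median of 40.4 to 140.04 FPKM. Of 50 classical-monocyte-like cells 8 held it (16%, 7.17 to 29.1), where the highest value was 316 FPKM. The difference was 4.02 log2 units, larger than that of 99.01% of the 6151 genes. Of the interstitial-macrophage-like cells, 3 held Itgax, at 8.13, 198 and 205 FPKM, and only the cell with 8.13 FPKM also held Itgam. Over all 73 cells both transcripts were detected together in 8 cells, which is 18.6% of the 43 cells with Itgam and 34.8% of the 23 with Itgax.

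The 250 bases upstream of these neighbours are shown because the genes lie side by side while Itgax was found in 11 and Itgam in 0 of the 12 alveolar-macrophage-like cells. The sequences are from RefSeq (GRCm38.p6) and read 5′ to 3′ on the plus strand, at chr7:128062390-128062639 for Itgam and chr7:128129300-128129549 for Itgax. Capitals mark GAGGAA, a purine-rich sequence to which the myeloid factor PU.1 can bind, or its reverse complement. Shorter or other forms of its site were not searched for.
Itgam: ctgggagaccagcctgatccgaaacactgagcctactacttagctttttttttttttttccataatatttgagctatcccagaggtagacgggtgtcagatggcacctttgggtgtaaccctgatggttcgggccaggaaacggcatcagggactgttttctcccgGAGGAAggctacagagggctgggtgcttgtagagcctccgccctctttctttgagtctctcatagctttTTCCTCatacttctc
Itgax: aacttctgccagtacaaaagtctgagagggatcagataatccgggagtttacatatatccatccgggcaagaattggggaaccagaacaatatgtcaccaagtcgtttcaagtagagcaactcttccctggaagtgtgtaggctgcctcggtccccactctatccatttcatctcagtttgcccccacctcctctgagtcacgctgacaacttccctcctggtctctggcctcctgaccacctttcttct
The Itgam window held 2 matches, 1 on each strand, and the Itgax window 0. Such a match stood in 23.3% of 32851 upstream windows of the same length, and in 3 of the 6 windows of the 9 integrins that RefSeq's table holds (Itgam, Itgb1 and Itgav). A match is a description of letters, and nothing follows from it or from its lack about binding.

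Itgal, the alpha chain of the ICAM receptor LFA-1, was detected in alveolar-macrophage-like and classical-monocyte-like cells and was listed at 0 in interstitial-macrophage-like ones. Of the alveolar-macrophage-like cells 8 of 12 held it (66.7%, 34.9 to 90.1), from 0 over a median of 15.2 to 102 FPKM. A count of 0 of 6 interstitial-macrophage-like cells has a limit of 50% (exact interval 0 to 45.9%). Of the unnamed cells, 1 had 42.96 FPKM and the other four were listed at 0. The classical-monocyte-like cells held it in 25 of 50 (50%, 35.5 to 64.5), with a median of 1.06 and a highest value of 127 FPKM. The alveolar-macrophage-like and classical-monocyte-like ranges overlapped. Itgal lies on chromosome 7 as well, from 127296260 to 127335138, and 727501 bases separate it from Itgam. Of the 3 beta2 partners Itgal, Itgam and Itgax, 8 of 12 alveolar-macrophage-like cells held exactly Itgal and Itgax, and 3 held Itgax alone. Among classical-monocyte-like cells 15 of 50 held Itgam alone, 6 held Itgal alone and 17 held Itgam with Itgal, with or without Itgax.

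**Figure D2:**
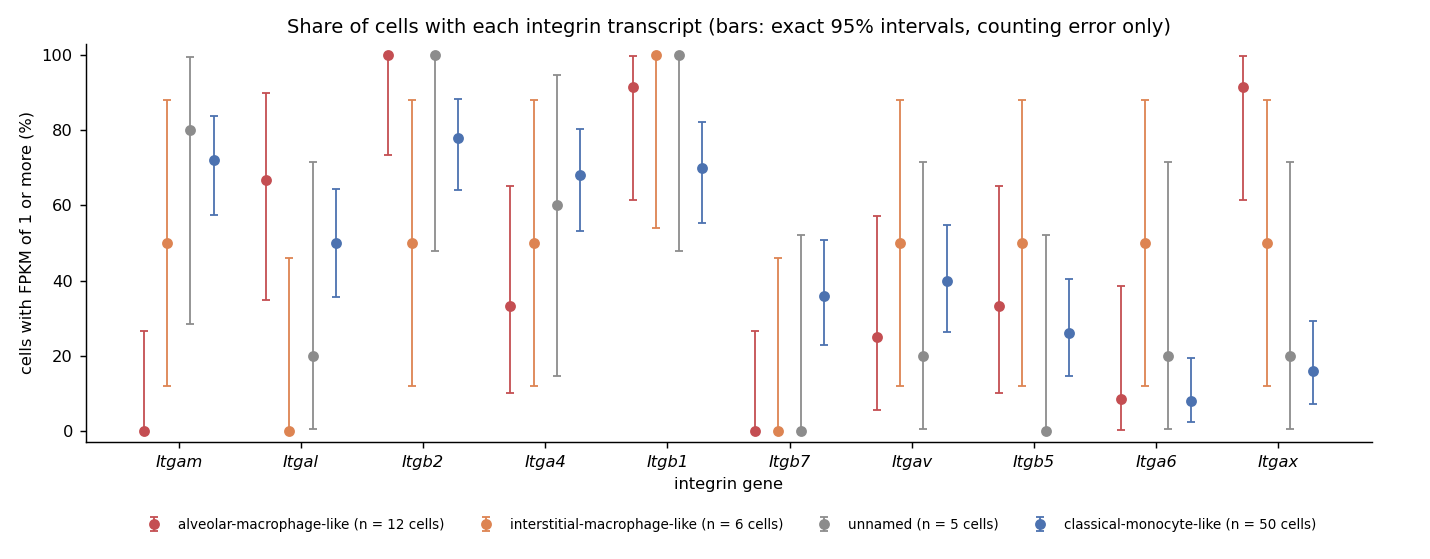
Points give the share of cells with FPKM of 1 or more for each integrin (horizontal axis) in each cluster (colour), and bars give exact 95% intervals that cover counting error only. The intervals of the 12 alveolar-macrophage-like and the 50 classical-monocyte-like cells do not overlap for Itgam or Itgax. For Itgam they are 0 to 26.5% in alveolar-macrophage-like and 57.5 to 83.8% in classical-monocyte-like cells. For Itgax they are 61.5 to 99.8% in alveolar-macrophage-like and 7.17 to 29.1% in classical-monocyte-like cells. Those for Itgal, Itgb2, Itga4, Itgb1, Itgb7, Itgav, Itgb5 and Itga6 overlap. The share of all genes without such overlap was not counted, so whether Itgam and Itgax stand out among all genes in this respect is not known.

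Itga4 and Itgb7 were lower, and Itgb1 higher, in alveolar-macrophage-like than in classical-monocyte-like cells. Itga4, the alpha chain of VLA-4, the VCAM-1 receptor, was found in 4 of 12 alveolar-macrophage-like cells (33.3%, 9.92 to 65.1), at 1.76, 3.45, 3.84 and 36.5 FPKM. Among classical-monocyte-like cells 34 of 50 held it (68%, 53.3 to 80.5), with a median of 9.27 and a highest value of 303 FPKM. The difference was -2.41 log2 units, and the ranges overlapped. The single cell with 36.5 FPKM carried 79.2% of the alveolar-macrophage-like sum. Of the interstitial-macrophage-like cells 3 of 6 held Itga4, at 10.3, 15.9 and 53.5 FPKM, and of the unnamed cells 3 of 5 did, at 8.34, 18.3 and 23.8 FPKM. Exons of Itga4 (chromosome 2, 79255426 to 79333123) overlap those of Cerkl on the other strand, those of Itgam overlap Gm49368 and those of Itgav overlap Gm13684. Gm49368 lies on the same strand as Itgam, so strand could not separate reads from that overlap. Gm13684 lies on the strand opposite to Itgav. Whether counting used strand is not given in the sources used here, so reads from the Cerkl and Gm13684 overlaps cannot be assigned either.

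Itgb1, the shared partner of alpha4, alpha5, alpha6 and alphav, was detected in most cells of every cluster. It ran from 0.786 over a median of 30.3 to 176 FPKM in alveolar-macrophage-like cells, 11 of 12 of which passed detection. In interstitial-macrophage-like cells it ran from 1.71 over a median of 46.9 to 344 FPKM and was detected in 6 of 6. The unnamed cells had 25.8, 41.8, 48.002, 62.6 and 116 FPKM. In classical-monocyte-like cells it was detected in 35 of 50 (70%, 55.4 to 82.1), with a median of 8.28 and a highest value of 249 FPKM. The differences from the classical-monocyte-like cells were 1.53 log2 units for alveolar-macrophage-like and 1.89 for interstitial-macrophage-like cells, and the ranges overlapped in both. Itgb1 lies on chromosome 8 from 128685654 to 128733200.

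Itgb7, which pairs with alpha4 in the receptor for the mucosal addressin MAdCAM-1, was detected in classical-monocyte-like cells alone. It was listed at 0 in all 12 alveolar-macrophage-like cells and in all 6 interstitial-macrophage-like cells. Of the unnamed cells 4 were listed at 0 and 1 had 0.672 FPKM. In the classical-monocyte-like cells 18 of 50 held it (36%, 22.9 to 50.8), 10 of them at 10 FPKM or more, with a highest value of 313 FPKM. The exact intervals reached 26.5% in alveolar-macrophage-like, 45.9% in interstitial-macrophage-like and 52.2% in unnamed cells, so their shares overlap that of the classical-monocyte-like cells at this number of cells. When cells were grouped by markers instead, 16 of 37 cells with Ly6c2 at 10 FPKM or more held Itgb7, against 2 of 14 remaining cells. The remaining cells lay outside the alveolar-macrophage-like cluster and reached 10 FPKM neither for Ly6c2 nor for at least 2 of the 3 C1q genes. The cell with 313 FPKM was also 1 of 3 cells with at least 3 dendritic cell markers, and without it the classical-monocyte-like mean was 14.98 FPKM instead of 20.95. The gene lies on the minus strand of chromosome 15 from 102215995 to 102231944.

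Itgav, which with several beta chains binds vitronectin and latent TGF-beta, was found in 3 of 12 alveolar-macrophage-like cells, at 4.17, 6.71 and 20.03 FPKM. In interstitial-macrophage-like cells 3 of 6 held it, at 2.94, 4.08 and 58.4 FPKM, and in classical-monocyte-like cells 20 of 50 did (40.0%, 26.4 to 54.8), with a highest value of 43.4 FPKM. Itgb5, the beta chain that binds alphav alone, was found in 4 of 12 alveolar-macrophage-like cells, at 21.8, 25.96, 55.2 and 65.4 FPKM. The interstitial-macrophage-like cells had 87.2, 174 and 263 FPKM in 3 cells and were listed at 0 in the other three, and all 5 unnamed cells were listed at 0. In classical-monocyte-like cells it was detected in 13 of 50 (26%, 14.6 to 40.3), with a highest value of 744 FPKM. The cell with 744 FPKM of Itgb5 was the same cell that had 1728 FPKM of Itgb2, and it was among the shallower cells with 458438 mouse fragments. Alveolar-macrophage-like and classical-monocyte-like cells lay within 1 log2 unit of each other for both genes, at -0.31 for Itgav and 0.57 for Itgb5.

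Itga6, the alpha chain of laminin receptors, was detected in 9 cells and in each of them together with Itgb1. Among interstitial-macrophage-like cells 3 of 6 held it, at 60.4, 61.9 and 117 FPKM. Of the alveolar-macrophage-like cells 1 held it, at 36.02 FPKM, and of the unnamed cells 1, at 1.91 FPKM. In classical-monocyte-like cells 4 of 50 did (8%, 2.22 to 19.2), at 32.4, 38.3, 54.4 and 290.1 FPKM. The cells with 32.4 and 290.1 FPKM were among 3 cells with at least 3 of 9 endothelial markers at 10 FPKM or more, endothelium being a known site of alpha6. Of these 9 markers, 0 were detected in alveolar-macrophage-like cells and 1, at no more than 1.55 FPKM in sum, in interstitial-macrophage-like cells. Without the cell with 290.1 FPKM the classical-monocyte-like mean was 2.57 FPKM instead of 8.32. The part of endothelial RNA in the Itga6 values was not tested.

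**Figure D3:**
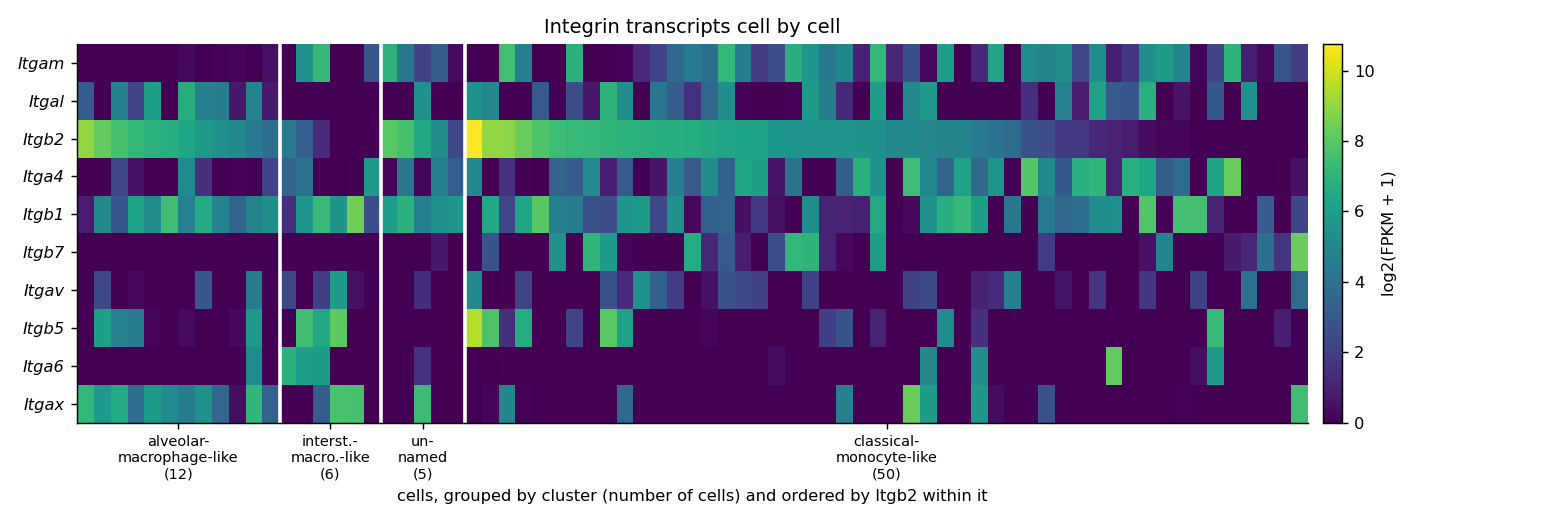
Rows are the 9 integrins and Itgax, columns are the 73 cells grouped by cluster and ordered by Itgb2 within it, and colour is log2(FPKM + 1). Itgb2 and Itgax run through the 12 alveolar-macrophage-like cells, Itgam is dark there, and the 6 interstitial-macrophage-like cells combine little Itgb2 with Itgb1.

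Interstitial-macrophage-like cells were also set against classical-monocyte-like cells, a comparison added after their values were seen. Itgb1, Itgb5 and Itga6 were higher by more than 1 log2 unit, 3 of 9, where 13.4% of the 6151 genes were higher by that much. Itgal, Itgb2, Itga4 and Itgb7 were lower, 4 of 9, where 16.2% of all genes were lower. The largest differences were -2.95 log2 units for Itgb2, 2.63 for Itga6, 2.41 for Itgb5 and -2.22 for Itgal. Itgam differed by -0.52 and Itgav by 0.64. The median difference was -0.52 over the 9 integrins and -0.21 over all genes. With 6 cells, single cells weigh on these values. The mean of Itgb1 was 100.2 FPKM with and 51.4 FPKM without the cell with 344 FPKM, and that of Itgb5 was 87.3 FPKM with and 52.2 FPKM without its highest cell.

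A grouping by marker genes gave a wider group of 10 C1q cells outside the alveolar-macrophage-like cluster, with at least 2 of the 3 C1q genes at 10 FPKM or more, and 37 Ly6c2 cells with Ly6c2 at 10 FPKM or more. The C1q cells took in the 6 interstitial-macrophage-like cells, 3 unnamed cells and 1 classical-monocyte-like cell. No cell lay between 5 and 20 FPKM for the deciding C1q gene, and 2 lay there for Ly6c2, both below the threshold. Itgb1 and Itga6 were higher in C1q cells, 2 of 9, where 13% of all genes were higher by more than 1 log2 unit. Itgam, Itgb2 and Itgb7 were lower, 3 of 9, where 10.8% of all genes were lower. The mean FPKM of Itgb2 was 18.7 in C1q cells and 80.5 in Ly6c2 cells, and that of Itgb1 was 76.03 in C1q cells and 37.95 in Ly6c2 cells. Itgb1 was detected in 10 of 10 C1q cells and 25 of 37 Ly6c2 cells, and Itga6 in 5 of 10 C1q cells and 1 of 37 Ly6c2 cells. Of these 5 cells, that with 32.4 FPKM held 3 endothelial markers, and that with 1.91 FPKM was 1 of the 3 cells with dendritic cell markers. The other three were the interstitial-macrophage-like cells with Itga6. Itgax, outside the 9, was detected in 5 of 10 C1q cells and 4 of 37 Ly6c2 cells.

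The chains that made up the integrin transcripts differed in share between clusters. The FPKM summed over all 27 integrin chains had a median of 275 in alveolar-macrophage-like, 412 in interstitial-macrophage-like, 324 in unnamed and 252 in classical-monocyte-like cells. Of that sum, Itgb2 made up 48.1% in alveolar-macrophage-like cells, 1.36% in interstitial-macrophage-like cells, 44.7% in unnamed cells and 31.5% in classical-monocyte-like cells. Itgb1 made up 16.3% in alveolar-macrophage-like, 27.8% in interstitial-macrophage-like, 22.7% in unnamed and 11.4% in classical-monocyte-like cells. Itgb5 made up 24.2% and Itga6 11.1% in interstitial-macrophage-like cells, against 9.55% and 2.49% in classical-monocyte-like cells. Itga4 made up 1.37% in alveolar-macrophage-like cells and 11.8% in classical-monocyte-like cells. These are sums of levels per length, and a sum over few cells follows its highest cells.

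**Figure D4:**
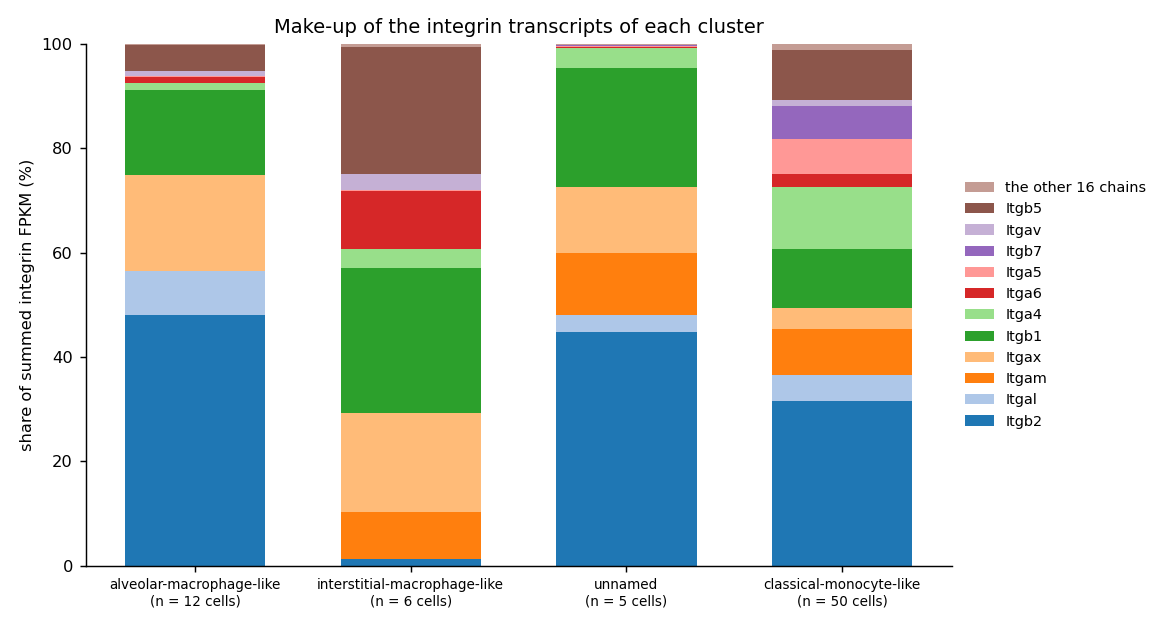
Bars divide the summed integrin FPKM of each cluster (horizontal axis) into shares per gene in percent (vertical axis). Itgb2 fills 48.1% of the bar of the alveolar-macrophage-like cells and 1.36% of that of the interstitial-macrophage-like cells, and Itgb7 is visible in the bar of the classical-monocyte-like cells alone.

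Since a chain needs a partner, detection of both chains in the same cell was counted for 9 known heterodimers. Among cells with an alpha chain, its beta partner was found in 30 of 34 for Itgal with Itgb2 (88.2%, 72.5 to 96.7), 34 of 43 for Itgam with Itgb2 (79.1%, 63.96 to 89.96) and 20 of 23 for Itgax with Itgb2 (86.96%, 66.4 to 97.2). For the beta1 family the counts were 33 of 44 for Itga4, 22 of 27 for Itgav, 15 of 20 for Itga5 and 9 of 9 for Itga6. Cells without the alpha chain held Itgb2 about as often, in 74.4% of cells without Itgal, 83.3% without Itgam and 78% without Itgax. Itgb1 was found in 82.8% of cells without Itga4, against 75% of cells with it. Without Itgav it was found in 76.1% of cells, without Itga5 in 79.2% and without Itga6 in 75%. Of the 18 cells with Itgb7, 9 also held Itga4, and of the 20 cells with Itgb5, 8 also held Itgav. Itgb7 was found in 9 of 44 cells with Itga4, against 9 of 29 cells without it. Itgb5 was found in 8 of 27 cells with Itgav, against 12 of 46 cells without it. Of the 6 interstitial-macrophage-like cells, 2 held Itgam with Itgb2, and of the classical-monocyte-like cells 28 of 50 did. At this depth a missing partner transcript does not show that the partner protein was missing.

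**Figure D5:**
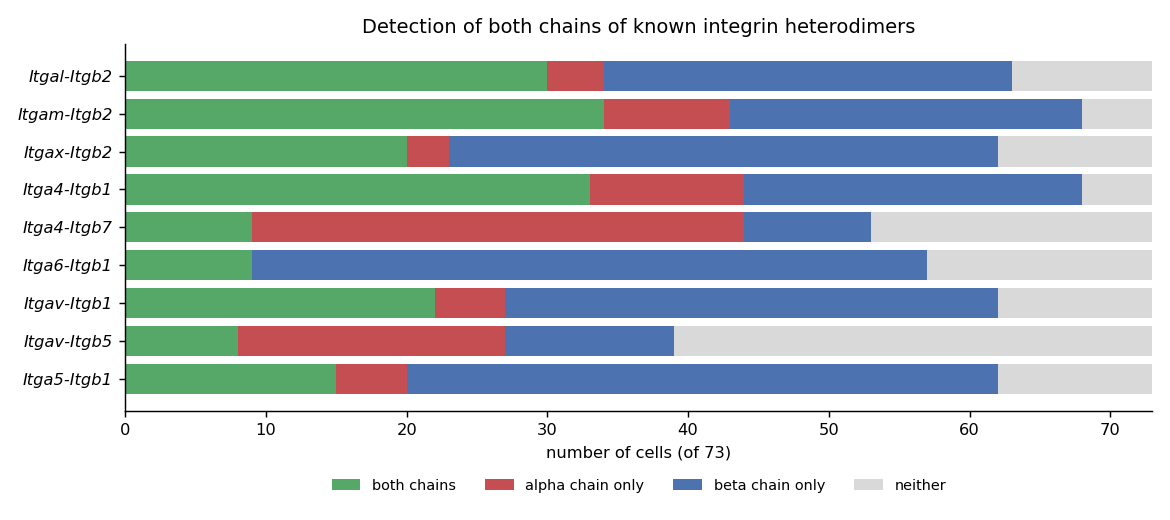
Bars divide the 73 cells by detection (FPKM of 1 or more) of both chains, the alpha chain only, the beta chain only or neither, for 9 known heterodimers. Both chains were found in 34 cells for Itgam with Itgb2 and in 9 cells for Itga4 with Itgb7.

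Of the other 18 integrin chains in the table, Itgax and Itga5 passed the filter on low values. Itga5, the alpha chain of the fibronectin receptor, reached 1 FPKM in 2 of 12 alveolar-macrophage-like cells, 1 of 6 interstitial-macrophage-like cells and, among classical-monocyte-like cells, 16 of 50, with highest values of 4.70 FPKM in alveolar-macrophage-like, 4.59 FPKM in interstitial-macrophage-like cells and 227 FPKM in classical-monocyte-like cells. Of the remaining 16 chains, Itga1 was detected in 5 cells, Itgb6 in 3, Itga9 in 2, and Itga2b, Itga3 and Itgae in 1 each. The other 10 were detected in 0 of 73 cells, a count that leaves room for up to 4.11%. They include Itgb3, the alternative partner of alphav, with a highest value of 0.0990 FPKM, and Itgad, the neighbour of Itgax.

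Genes that regulate integrins or link to them were measured as well, and not all of these switch integrins on. Of 33 genes for integrin activation and adaptors, 25 passed the filter, and between alveolar-macrophage-like and classical-monocyte-like cells 3 were higher by more than 1 log2 unit and 7 were lower, with a median of -0.41 against 0.13 over all genes, of which 19.2% were higher and 9.12% lower. Fyb, the adaptor ADAP, reached 1 FPKM in 0 of 12 alveolar-macrophage-like cells, against 45 of 50 classical-monocyte-like cells, with a median of 0 FPKM in alveolar-macrophage-like cells, against 93.4 FPKM in classical-monocyte-like cells, and a difference of -5.66. Ptk2b, a focal adhesion kinase of leukocytes, ran the other way, with 11 of 12 alveolar-macrophage-like cells, against 17 of 50 classical-monocyte-like cells, and a difference of 2.77. In interstitial-macrophage-like cells 1 of the 25 was higher than in classical-monocyte-like cells and 13 were lower, with a median of -1.01. Over all genes 13.4% were higher and 16.2% lower, with a median of -0.21. These are also the cells in which Hprt was detected in 1 of 6. Among the lower were Cytip, which binds cytohesin-1, with 1 of 6 interstitial-macrophage-like cells, against 44 of 50 classical-monocyte-like cells, and a difference of -4.66, and Fgr, a Src family kinase, with 0 of 6 interstitial-macrophage-like cells, against 36 of 50 classical-monocyte-like cells, and a difference of -3.68. Tln1, the talin that binds beta chain tails, differed by -0.51 for alveolar-macrophage-like and by -1.54 for interstitial-macrophage-like minus classical-monocyte-like cells.

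Of 22 integrin ligand genes, 9 passed the filter. Between alveolar-macrophage-like and classical-monocyte-like cells 2 were higher and 5 lower, with a median of -1.25, where 19.2% of all genes were higher and 9.12% lower, with a median of 0.13. Thbs1 (thrombospondin) reached 1 FPKM in 0 of 12 alveolar-macrophage-like, 2 of 6 interstitial-macrophage-like and, among classical-monocyte-like cells, 38 of 50. Fn1, fibronectin and a ligand of alpha4 and alpha5 with beta1, was detected in 7 of 12 alveolar-macrophage-like, 1 of 6 interstitial-macrophage-like and, of the classical-monocyte-like cells, 44 of 50, with medians of 4.58 FPKM in alveolar-macrophage-like, 0 FPKM in interstitial-macrophage-like cells and 67.4 FPKM in classical-monocyte-like cells. Spp1 (osteopontin) was found in 8 of 12 alveolar-macrophage-like cells, against 3 of 50 classical-monocyte-like cells. Since 1 classical-monocyte-like cell reached 25044 FPKM, the mean was lower in alveolar-macrophage-like cells, at 378 FPKM against 559.6 FPKM, while the difference in mean log2(FPKM + 1) was 4.45. Genes for vitronectin, MAdCAM-1 and the fibrinogen chains were detected in 0 of 73 cells. Among 11 other adhesion molecules in the table, Sirpa, the receptor of CD47, was found in 12 of 12 alveolar-macrophage-like cells, 6 of 6 interstitial-macrophage-like cells and, among classical-monocyte-like cells, 34 of 50. Cd44, the hyaluronan receptor, had a median of 405 FPKM in alveolar-macrophage-like, 25.3 FPKM in interstitial-macrophage-like and 319 FPKM in classical-monocyte-like cells.

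Within the 50 classical-monocyte-like cells the correlations between the integrins were low. Many levels were listed at 0, in 7 of these cells for Itgb2 and up to 42 for Itga6. How far this lowers a correlation was not tested. Over the 36 pairs of the 9 genes, Spearman's correlation across these cells had a median of -0.01, from -0.28 for Itgb7 with Itga6 to 0.36 for Itgb2 with Itgb5. The correlation of Itgam with Itgb2 was -0.14 and that of Itga4 with Itgb1 was -0.19. The cells share a mouse, and they differ in depth. The correlation with the number of mouse fragments was between -0.22 for Itga4 and 0.38 for Itgam. The 3 most similar genes of each integrin were sought among 1789 genes detected in at least 20 of these cells. Among the highest values were 0.61 for Itgam with Plec, a cytoskeletal linker, 0.58 for Itgam with Chchd1, 0.58 for Itgb1 with Tmed2 and 0.55 for Itgav with Id2. Over all 73 cells the same pairs had 0.49, 0.35, 0.43 and 0.39. Ucp2 stood among the 3 nearest genes of both Itgal, at 0.47, and Itgb2, at 0.50. None of the 9 integrins was among the nearest genes of another. Itgb7, Itgb5 and Itga6, detected in 18, 13 and 4 of these cells, fell below the 20 asked for and could not have been. These are the highest of many values over sparse levels and are given as a description.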

How the data were processed

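RNA of 73 sorted single cells was captured on a Fluidigm C1 chip and amplified (SMARTer), with Nextera XT libraries, per the labels' protocols. The submitters' processing notes name CASAVA 1.8, TopHat2 2.1.0, Cufflinks 2.2.1 and Cuffnorm and the build mm10, while the annotation, strand setting and cell filters are not given in the sources used here. Levels come from a deposited table of FPKM, normalised per cell by the authors. The second deposited table holds a normalised signal, fragment counts divided by a factor per cell, from which fragments per cell were estimated by the step between low values (99.6% of them within 0.1 of a whole step). Estimated totals were 902485 to 4305008 fragments per cell, of which 347003 to 3485945 were from mouse genes. Rows of 100 spike-ins were left out. Each column was matched to its sample by cell number, with 0 columns left over.

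Clusters came from 1000 variable genes without any adhesion gene, as log2(FPKM + 1), 10 principal components and Ward linkage, with the number of clusters from 2 to 6 chosen by silhouette with at least 5 cells in each (scikit-learn 1.9.0, scipy 1.17.1). Comparisons are differences of mean log2(FPKM + 1), a scale that understates changes of low genes, and are called past 1 log2 unit. No doublet caller was run. The clustering and calls were run on shuffled data with a rise put into a group of cells, and judged at the largest rise only. The number of clusters was fixed in that check. It therefore does not cover the choice of 4 clusters, the small clusters or calls near 1 log2 unit. The integrins, gene lists and groupings were chosen with earlier results of these data known. Genes were named from the integrins, the adhesion lists and the 3 nearest genes of each integrin, and of the lists and nearest genes most are given as counts or not reported here. Positions are from GENCODE on GRCm38, the assembly of mm10. Alternatives covered detection thresholds, scaling, thinning, pseudocount, filters and clustering.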

Additional observations from a re-analysis of the deposited data

How the results depend on the processing

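Over 14 alternative settings, 351 recomputed values for 44 results gave 317 that stayed with the main value, 34 that moved and 0 that reversed. Most moves came from the detection threshold, with 16 moved and 27 unmoved at 10 FPKM or more. Detection at any value above 0 gave 9 moved and 34 unmoved. With detection at 10 FPKM or more, 2 of the 9 integrins were detected in over 50% of cells instead of 4. With a pseudocount of 0.1, 4 integrins instead of 2 were higher in alveolar-macrophage-like than in classical-monocyte-like cells, and 4 instead of 2 in C1q than in Ly6c2 cells. Itgal, at 0.98 log2 units, passed the threshold at 1.17 with FPKM rescaled to a total of 1000000 per cell and at 1.20 per spike-in. Per spike-in 0 values were counted as moved, so the tally does not show every crossing of the threshold. Of the 27 nearest genes, 6 stayed with correlations over all 73 cells and 17 after rescaling. Scaling to the spike-in moved the median difference of all genes between C1q and Ly6c2 cells to 0.20, against 0.01 as deposited, and the directions of the 5 integrins called there held. Itga6, at -0.06 for alveolar-macrophage-like minus classical-monocyte-like cells, was at 0.003 per spike-in. Leaving out the 4 cells with endothelial or epithelial markers moved none of 43 results, and the same 12 alveolar-macrophage-like cells were found in 4 other clusterings. Of these, 2 (2000 variable genes, and a division into 2) left the other 61 cells in 1 cluster, without separate interstitial-macrophage-like or unnamed clusters, and in the other two the largest cluster held 47 cells instead of 50. Among the 37 deeper cells, an alternative chosen after seeing the data, 1 of 43 results moved. Over 20 draws of thinning to 347003 mouse fragments, 2 to 3 integrins were higher in alveolar-macrophage-like than in classical-monocyte-like cells and 2 to 3 in C1q than in Ly6c2 cells, where 3 to 4 were lower, and the Itgal difference between the clusters ran from 0.92 to 1.05. No paired analysis was possible because all cells belong to 1 group. Depth limits statements on absence, and the 6 interstitial-macrophage-like and 5 unnamed cells give wide intervals.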
